A study of Mus musculus with 14 samples.

Results

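Secondary neurospheres grown from the adult mouse striatum were compared with secondary neurospheres grown from the ventral forebrain of the mouse embryo. Neurospheres are floating colonies that form when dissociated brain cells divide in culture, and secondary spheres are those that form again after the first spheres have been dissociated. The comparison holds 5 of the 14 arrays of the series: 3 of adult striatal spheres and 2 of ventral forebrain spheres from embryonic day E14.5, chosen by their sample titles. All came from wild-type CD-1 mice, an outbred strain, and no treatment or transgene was given. The other 9 arrays held spheres of adult neocortex (3), adult subventricular zone (3), embryonic dorsal forebrain (2) and embryonic spinal cord (1). Total RNA was hybridised to Affymetrix Mouse Genome 430 2.0 arrays, on which each gene is read by 1 or more probe sets. Of 45101 probe sets, 35211 were tested: those that were no control and had a detection p under 0.05 on at least 2 of the 14 arrays. No source used here states the age of the adults or says that samples came from separate animals or cultures, and each p-value therefore reflects sample-to-sample spread that may be technical. The number of arrays limits the precision.

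The embryonic ventral forebrain contains the ganglionic eminences, the dividing zones that produce the neurons of the striatum and most inhibitory interneurons of the forebrain. The adult striatum lies outside the germinal lining of the ventricle and is made of neurons, astrocytes, oligodendrocytes, their progenitors and microglia. Regional identity in the ventral forebrain is set by homeodomain transcription factors. Among them, Six3 acts in the forebrain anlage and in striatal neuron precursors, Dlx5 acts in differentiating inhibitory neurons, and Lhx8 acts in cholinergic neurons and their precursors. Il33 is an alarmin cytokine of the interleukin-1 family made by glia, Mag is a myelin adhesion protein of oligodendrocytes, Pdgfra is the receptor that marks oligodendrocyte progenitors, Mki67 marks dividing cells and Ctss is a lysosomal protease of microglia and macrophages.

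The promoters of Six3, Lhx8, Il33 and Mag are shown because these genes gave the main contrasts. Six3 was present in striatal and ventral spheres, Lhx8 was seen in the embryonic ventral spheres, and Il33 and Mag in the adult ones. Each sequence runs 5′ to 3′ on the gene's strand from 250 bases before to 50 bases after the annotated start, was taken from RefSeq on build GRCm38.p6, and has its CG pairs in capitals. CG was searched as the letters CG, which read the same on both strands. It occurs in 94.2% of the 27025 promoters of the table, with a median of 7 per 300-base window, while the 80.2% of tested genes that matched the table have a median of 20.
Six3 (chr17:85620584-85620883, + strand, 14 CG): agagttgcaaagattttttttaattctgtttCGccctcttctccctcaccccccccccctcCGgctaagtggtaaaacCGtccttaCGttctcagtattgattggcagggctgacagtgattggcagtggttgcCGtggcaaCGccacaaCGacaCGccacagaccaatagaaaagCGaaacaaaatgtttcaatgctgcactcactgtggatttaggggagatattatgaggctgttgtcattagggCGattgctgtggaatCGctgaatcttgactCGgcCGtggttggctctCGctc
Lhx8 (chr3:154330511-154330810, - strand, 4 CG): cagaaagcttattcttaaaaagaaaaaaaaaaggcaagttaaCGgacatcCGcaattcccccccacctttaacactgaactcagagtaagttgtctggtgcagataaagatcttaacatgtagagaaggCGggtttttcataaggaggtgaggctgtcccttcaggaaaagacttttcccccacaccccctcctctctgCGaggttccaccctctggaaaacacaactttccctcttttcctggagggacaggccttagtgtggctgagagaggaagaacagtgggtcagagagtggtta
Il33 (chr19:29924863-29925162, + strand, 6 CG): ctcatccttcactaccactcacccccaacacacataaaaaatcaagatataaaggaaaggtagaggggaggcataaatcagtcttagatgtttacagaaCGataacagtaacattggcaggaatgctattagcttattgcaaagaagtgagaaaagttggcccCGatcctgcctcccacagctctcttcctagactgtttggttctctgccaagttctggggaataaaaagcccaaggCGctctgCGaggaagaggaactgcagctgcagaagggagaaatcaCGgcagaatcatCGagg
Mag (chr7:30914814-30915113, - strand, 6 CG): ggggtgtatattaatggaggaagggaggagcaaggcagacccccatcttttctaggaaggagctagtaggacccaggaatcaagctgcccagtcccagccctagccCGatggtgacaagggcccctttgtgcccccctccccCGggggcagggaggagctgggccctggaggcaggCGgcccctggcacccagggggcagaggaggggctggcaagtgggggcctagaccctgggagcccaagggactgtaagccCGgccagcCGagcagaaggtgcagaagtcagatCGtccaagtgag
The letters TAATTA, a core bound by many homeodomain proteins that also read the same on both strands, were not in any of these windows. They occur in 5.3% of all promoters of the table and in 2.7% of those of tested genes. For the ventral telencephalic transcription factors listed below the share is 11.8%. At such shares their absence from so few windows says nothing about these genes. A promoter of Dlx5 was not used here.

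The 2 ventral samples differed from each other, and each is therefore given singly throughout. Over the tested probe sets the log2 values of the ventral samples correlated at 0.9218, while ventral sample 1 correlated at 0.9677 with dorsal sample 1 and ventral sample 2 at 0.955 with dorsal sample 2. With the spinal cord sample ventral sample 1 correlated at 0.8994 and ventral sample 2 at 0.9276. The striatal samples correlated with each other at 0.9642 to 0.9785, with ventral sample 1 at 0.9066 to 0.9211 and with ventral sample 2 at 0.8168 to 0.833. Ventral sample 2 held embryonic globin Hbb-y at a signal of 22848.2, against 21.2 in ventral sample 1 and 28.3 to 86.2 in the striatal samples. The receptor Egfr, through which neurosphere cells respond to growth factor, had a signal of 278.7 in ventral sample 2, against 8236.8 in ventral sample 1 and 5556.5, 5617.0 and 6216.3 in the striatal samples. Hbb-y was also at 39.4 and 21494.1 in the dorsal samples and at 20069.2 in the spinal cord sample. Egfr was at 121.8 and 6909.7 in the dorsal samples and at 633.4 in the spinal cord sample. The part of red blood cell RNA in the results was not tested. Both ventral samples are called ventral spheres by their titles alone. Whether ventral sample 2 was a sphere culture like ventral sample 1 was not tested. Xist, the RNA of the inactive X chromosome, was at 3.5 to 8.2 in the striatal samples and at 11760.6 and 16863.4 in the ventral samples, and the Y-linked Eif2s3y was at 10480.3 to 11179.1 in the striatal samples, 4042.4 in ventral sample 1 and 54.6 in ventral sample 2. Age and the sex of the cells therefore cannot be told apart in this comparison. The codes in the array names, whose meaning no source states, were 3 among the striatal and 2 among the ventral arrays with 0 shared. They therefore cannot be told apart from age either. The 2 ventral codes also occur among the dorsal arrays, and the spinal cord array name ends in a code of a ventral and a dorsal array. As the 2 ventral arrays differ in code, the code cannot be told apart from the difference between the ventral samples.

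In the following, a probe set is called when its adjusted p in the limma model over all 14 arrays, with Benjamini-Hochberg adjustment over the 35211 probe sets, is under 0.05, and all log2 differences are striatum minus ventral forebrain on the scale of log2(signal + 27) after each array was centred on its median. Of the tested probe sets 6792 were called, 19.3% of all, with 4069 (11.6%) higher and 2723 (7.73%) lower in striatal spheres. After centring 59.9% of the calls were higher and the median log2 difference of all probe sets was 0.04, while with the values as deposited 48.8% of the calls were higher and that median was -0.09. Counted by gene, with the probe set of highest mean for each, 2205 of 14716 genes (15%) were higher and 1264 (8.59%) were lower, and the counts for gene lists are to be read against these shares. Without ventral sample 2 the calls dropped to 1963, and without ventral sample 1 they came to 8870. Of the calls, 1156 higher and 574 lower probe sets were also called against each ventral sample alone, where the lone ventral sample was assumed to vary like the other groups. Such genes are described as called against each ventral sample. The lists hold 516 tested genes, of which 120 were higher and 78 lower, and 48 and 34 of these were called against each ventral sample.

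The 7 probe sets by which the comparison is read fell into 3 patterns. The embryonic factors Dlx5 and Lhx8 were lower in striatal spheres and Il33 was higher, in both cases far beyond the spread. Six3, Pdgfra and Mki67 did not pass the test, and the call of Ctss depended on which samples were used. Dlx5 had signals of 47.4, 58.9 and 55.7 in striatal samples 1, 2 and 3 and of 2311.1 and 11694.4 in ventral samples 1 and 2. All striatal samples were far below both ventral samples, with a log2 difference of -5.89 ± 0.69 (SE, 3 against 2 arrays, limma adjusted p = 1.45e-04). Lhx8 read 5.7, 3.8 and 3.3 in the striatal samples and 607.8 and 5326.2 in the ventral samples. No striatal array detected it, and it was at least 42.7-fold lower there (limma adjusted p = 8.13e-05), where the fold sets the ventral mean against the higher of each striatal array's lowest detected signal and the probe set's own. Such a lower bound is given in place of a log2 difference wherever no array of the dimmer group detected the probe set. It takes in the limit of detection but not the spread between samples, so that the 95% interval of the fit can reach lower. It equals the fitted fold where the probe set's own signals are not below the lowest detected ones. This holds for Mbp, Slc32a1, Myrf, Ifit3, Psmb8, C5ar1, Gsx1 and the Isl1 probe set of the list count.

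Il33 had signals of 22268.9, 31145.4 and 30542.1 in the striatal samples and of 78.7 and 56.4 in the ventral samples. The groups lay far apart, with a log2 difference of 8.33 ± 0.26 (SE, 3 against 2 arrays, limma adjusted p = 6.18e-10), and among the tested genes the largest fitted rise was that of the myelin gene Mbp, followed by Il33. In the adult neocortical spheres it ran from 34820.8 to 45587.7 and in the subventricular zone spheres from 5331.6 to 6286.8, so that the striatal samples lay between them.

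Six3 had signals of 1064.6, 729.0 and 1184.7 in the striatal samples and of 1429.1 and 1675.3 in the ventral samples. Both ventral samples lay above the striatal ones, with a log2 difference of -0.53 and a 95% interval from -1.41 to 0.35 (limma adjusted p = 0.399). The same probe set separated ventral from dorsal origin at each age: it was higher in striatal than in neocortical spheres by 2.99 ± 0.36 on the log2 scale (limma adjusted p = 0.0032), and higher in embryonic ventral than dorsal spheres by 3.43 ± 0.44 (limma adjusted p = 0.0337). The neocortical samples ran from 44.4 to 176.3, the dorsal samples from 93.1 to 131.3 and the subventricular zone samples from 1224.3 to 1533.7. In contrast to Six3, Dlx5 differed between striatal and neocortical spheres by 0.07 ± 0.62 (limma adjusted p = 0.983) and Lhx8 by 0.13 ± 0.56 (limma adjusted p = 0.969).

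Pdgfra had signals of 2463.0, 1984.9 and 3900.2 in the striatal samples and of 1141.8 and 830.4 in the ventral samples. The groups did not overlap, but the log2 difference of 1.56 ± 0.57 (SE) missed the threshold (limma adjusted p = 0.0727). Mki67 read 16060.4, 20480.0 and 18256.0 in the striatal samples and 28337.7 and 24896.8 in the ventral samples. It was bright on every array, both ventral samples lay above the striatal ones, and the log2 difference of -0.42 had a 95% interval from -0.84 to 0.00 (limma adjusted p = 0.153). Ctss read 3133.4, 6389.1 and 4721.3 in the striatal samples but 52.1 in ventral sample 1 and 1037.3 in ventral sample 2. Its log2 difference of 4.11 ± 1.06 was called (limma adjusted p = 0.0178), and the call was lost without ventral sample 1 (adjusted p = 0.142) and without striatal sample 2 (adjusted p = 0.0535).

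**Figure D1:**
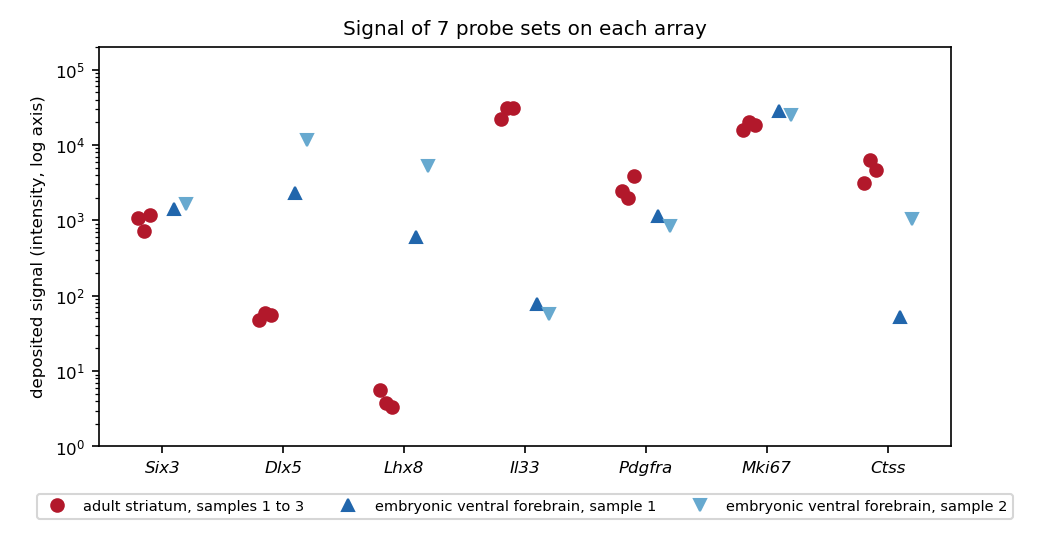
Deposited signal on a log axis of 7 probe sets on each of the 5 arrays, with circles for adult striatal samples and triangles for the 2 embryonic ventral forebrain samples. Six3 lay between 729.0 and 1675.3 on all 5 arrays, while Dlx5 and Lhx8 were low and Il33 high on the striatal arrays, and the ventral samples lay apart from each other for Ctss.

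Beyond Six3, the transcription factors of the ventral telencephalon were mostly lower in striatal spheres. Of 21 tested genes of the list 14 were lower and 1 was higher, with a median log2 difference of -2.74 beside a median of 0.04 over all probe sets. Against each ventral sample 6 were lower: Dlx5, Lhx8, Lhx6, Isl1, Gbx1 and Pbx3. Lhx6, a factor of interneurons from the medial ganglionic eminence, had signals of 50.7, 32.0 and 8.6 in the striatal samples and of 2885.8 and 9940.7 in the ventral samples. Isl1, a factor of striatal projection and cholinergic neurons, was read by 2 probe sets, of which the one with the larger fall had 1.8, 1.1 and 4.1 in the striatal samples and 1803.5 and 11026.0 in the ventral samples. On these probe sets no striatal array detected either gene, and Lhx6 was at least 86.1-fold lower (limma adjusted p = 2.09e-04) and Isl1 at least 104-fold lower (limma adjusted p = 1.47e-04). The other Isl1 probe set, on which the list count rests, read 95.8, 48.3 and 43.5 against 582.0 and 6224.4. It was detected on no striatal array either and was at least 20.6-fold lower (limma adjusted p = 0.00289, and 0.0484 without ventral sample 2).

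The Dlx genes of the list differed in size. Dlx1, which works with Dlx2 early in inhibitory neuron formation, read 447.9, 524.5 and 298.6 in the striatal samples and 3670.8 and 16864.4 in the ventral samples (log2 difference -4.04 ± 1.00, limma adjusted p = 0.0143), but its call was lost without ventral sample 2 (adjusted p = 0.19). Dlx2 stayed well above background in the striatal samples, at 3126.3, 2768.1 and 1218.7, against 6685.1 and 26461.6, and was not called (-2.46 ± 0.86, limma adjusted p = 0.0617). Gsx2, a factor of the lateral ganglionic eminence, read 220.0, 120.1 and 5.8 against 304.6 and 989.3 and was not called (limma adjusted p = 0.0508). Its relative Gsx1 was the only member that was higher, at 196.7, 327.4 and 281.8 against 67.9 and 22.3 (no ventral array detected it, at least 4.63-fold higher, limma adjusted p = 0.0134), and it too lost its call without ventral sample 2 (adjusted p = 0.178).

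**Figure D2:**
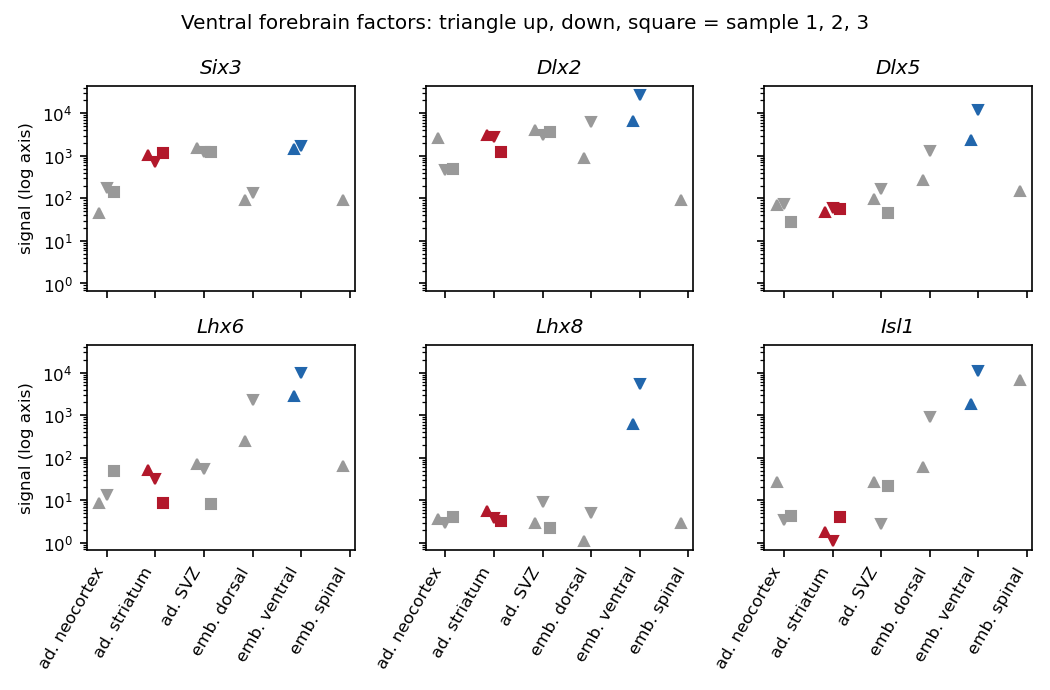
Signal on a log axis of 6 ventral forebrain transcription factors on all 14 arrays by group, with symbols for the sample number, the adult striatal samples in red and the embryonic ventral samples in blue. Six3 is near the same level in striatal, subventricular zone and ventral spheres, whereas Dlx5, Lhx6, Lhx8 and Isl1 are low in all adult spheres and highest in ventral sample 2.

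Transcription factors of the dorsal telencephalon, the source of cortical glutamatergic neurons, were also present in the ventral spheres and lower in the striatal ones. Of 19 tested genes 9 were lower and none was higher (median log2 difference -2.47), and 5 were lower against each ventral sample. Tbr1, a factor of early cortical neurons, had signals of 13.6, 21.1 and 22.5 in the striatal samples and of 3466.0 and 13862.5 in the ventral samples (-7.12 ± 0.65, limma adjusted p = 2.6e-05). These ventral levels were close to the range of the embryonic dorsal spheres, 4349.7 to 21414.3, and the ventral minus dorsal difference was -0.56 ± 0.71 (limma adjusted p = 1). Neurod6, a factor of cortical projection neurons, read 1.4, 16.6 and 2.2 in the striatal samples and 958.4 and 5382.4 in the ventral samples (no striatal array detected it, at least 52.8-fold lower, limma adjusted p = 1.02e-04). Pax6, which marks dorsal radial glia, read 959.3, 730.2 and 956.4 against 1166.5 and 2124.3 and was not called (limma adjusted p = 0.223).

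Genes of young and of differentiated neurons were lower in striatal spheres. Of 21 tested neuroblast and young neuron genes 17 were lower and 1 was higher, with a median log2 difference of -1.49, and 10 were lower against each ventral sample. Leaving out a striatal sample gave 11 to 16 lower genes. Dcx, a microtubule protein of migrating neuroblasts, had signals of 236.0, 440.7 and 254.7 in the striatal samples and of 16583.5 and 33896.7 in the ventral samples (-6.06 ± 0.63, limma adjusted p = 5.85e-05). Tubb3, the neuronal tubulin, read 2204.7, 1240.7 and 1648.0 against 16646.5 and 33688.5 (-3.69 ± 0.52, limma adjusted p = 5.18e-04), and Stmn2, a growth cone protein, 597.5, 245.2 and 173.1 against 7264.4 and 18841.3. Both were lower in every striatal sample, and for each of the 3 genes ventral sample 2 lay above ventral sample 1. The neurofilament gene Nefl ran the other way, at 19629.1, 15030.7 and 11939.2 against 3144.8 and 11205.0 (1.48 ± 0.40, limma adjusted p = 0.0222), and its call was lost without ventral sample 1 (adjusted p = 0.193) and without striatal sample 1 (adjusted p = 0.0802) or 2 (adjusted p = 0.0507).

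Genes of striatal neurons were also lower: 10 of 13 tested, none higher, with a median of -1.99 and 3 lower against each ventral sample. Without striatal sample 1 or 2 there were 6. Bcl11b, a factor of striatal projection neurons that is also in the dorsal list, read 1662.2, 1746.0 and 874.4 in the striatal samples and 12399.7 and 25615.7 in the ventral samples (-3.55 ± 0.45, limma adjusted p = 2.45e-04). Foxp1 read 1021.4, 1360.1 and 1750.0 against 4670.9 and 15121.5 (-2.49 ± 0.42, limma adjusted p = 0.00155), and the vesicular GABA transporter Slc32a1 read 246.7, 39.6 and 299.9 against 1892.4 and 3259.8 (no striatal array detected it, at least 12.7-fold lower, limma adjusted p = 0.00249). Penk, an opioid peptide precursor of mature striatal neurons, read 234.2, 123.6 and 398.2 in the striatal samples and 1085.9 and 964.6 in the ventral samples. Drd2, a dopamine receptor, read 52.0, 5.2 and 82.0 against 215.6 and 204.8, was detected on no striatal array and was at least 3.06-fold lower (limma adjusted p = 0.0319). The calls of Penk and Drd2 were lost when either ventral sample was left out (adjusted p from 0.0714 to 0.154). In contrast, Gad2, an enzyme of GABA synthesis, was bright and variable at 26731.8, 8086.9 and 17546.9 against 13017.6 and 25206.8 (-0.09 ± 0.91, limma adjusted p = 0.961). In such bulk samples, fewer cells of a type and less RNA per cell cannot be told apart.

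Myelin and mature oligodendrocyte genes were higher in striatal spheres, in a larger share than for any other list that was run. Of 16 tested genes 15 were higher and none lower, with a median log2 difference of 4.96, and 14 were higher against each ventral sample. With members that no ventral array detected set at their bounds it was 4.83. The median was 4.75 without ventral sample 1 and 4.82 without ventral sample 2. Mbp, the myelin basic protein, had signals of 41374.8, 43971.2 and 46449.8 in the striatal samples and of 103.6 and 148.1 in the ventral samples on its brightest probe set (8.31 ± 0.19, limma adjusted p = 2.82e-11). On the probe set with its largest rise no ventral array detected it. The fitted fold there was 681 (limma adjusted p = 6.33e-11), with a 95% interval of the log2 difference from 8.91 to 9.91. The bound equals this fold, since the probe set's own ventral signals were not below the lowest detected ones. Of the 8 tested Mbp probe sets 6 were called higher, and the lowest log2 difference among them all was 0.09. Mag read 3017.5, 5398.8 and 6246.3 in the striatal samples and 5.6 and 5.0 in the ventral samples, at least 132-fold higher (limma adjusted p = 4.53e-08). Mog, a protein of the myelin surface, read 4899.1, 9907.4 and 8643.6 against 47.4 and 310.2 (5.69 ± 0.68, limma adjusted p = 1.55e-04). The factor Myrf, which switches on myelin genes, read 519.1, 1237.9 and 1254.9 against 77.8 and 38.8 (no ventral array detected it, at least 12.6-fold higher, limma adjusted p = 9.31e-04). Bcas1, of newly formed oligodendrocytes, was the member that missed the test, at 23357.1, 26156.9 and 28468.7 against 14538.2 in ventral sample 1 and 972.4 in ventral sample 2 (limma adjusted p = 0.0536).

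Oligodendrocyte progenitor genes were called in part. Of 15 tested 5 were higher (Sox10, Lhfpl3, Pcdh15, Cspg5 and C1ql1) and none was lower, with a median of 1.84, but 1 gene, Pcdh15, was higher against each ventral sample. Without ventral sample 1 there were 10 higher genes, and without striatal sample 3 there were 3. Pcdh15, a protocadherin, read 664.9, 798.7 and 882.6 in the striatal samples and 108.5 and 139.4 in the ventral samples (2.55 ± 0.43, limma adjusted p = 0.00165). Of the 3 tested Pcdh15 probe sets only this 1 was called, and the lowest log2 difference among them was 0.19. The lineage factor Olig2 read 8204.2, 10173.2 and 10511.2 in the striatal samples, 7978.7 in ventral sample 1 and 1035.0 in ventral sample 2 (1.84 ± 1.29, limma adjusted p = 0.35). Olig1 had the same pattern, at 22897.7, 24991.0 and 26523.9 against 20072.5 and 1314.4 (limma adjusted p = 0.214). Sox10, of the whole lineage, read 1997.9, 2578.1 and 2968.7 against 315.4 and 79.6 (3.84 ± 0.98, limma adjusted p = 0.0161), and its call was lost without ventral sample 2 (adjusted p = 0.187).

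Astrocyte genes were higher in striatal spheres: 16 of 21 tested, none lower, with a median of 1.90, and 9 against each ventral sample. Gfap, the intermediate filament of astrocytes and of adult neural stem cells, had signals of 3120.3, 7213.0 and 12744.3 in the striatal samples and of 3.8 and 2.5 in the ventral samples. No ventral array detected it, and at the limit of detection it was 186-fold higher in striatal spheres (limma adjusted p = 0.00326). The fitted log2 difference was 7.91, with a wide 95% interval from 4.67 to 11.14. S100b read 3037.6, 7378.2 and 8005.5 against 79.7 and 7.6 (6.67 ± 0.50, limma adjusted p = 5.81e-06), and Apoe, a lipid carrier, 3609.2, 2300.7 and 2731.1 against 328.3 and 121.7 (3.76 ± 0.39, limma adjusted p = 6.05e-05). Aqp4, the water channel of astrocyte endfeet, read 3473.8, 4739.8 and 7351.1 in the striatal samples, 1191.0 in ventral sample 1 and 46.3 in ventral sample 2 (4.18 ± 0.86, limma adjusted p = 0.00536). Other astrocyte genes were shared with ventral sample 1: Slc1a3, a glutamate transporter of astrocytes and radial glia, read 20239.9, 20140.2 and 21937.3 against 17506.5 in ventral sample 1 and 3658.8 in ventral sample 2 and was not called (limma adjusted p = 0.0857). Leaving out a striatal sample gave 11 to 13 higher astrocyte genes.

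Genes of neural stem cells and radial glia were called in shares near those of all genes, 15% higher and 8.59% lower. Of 23 tested 4 were higher, 2 were lower and 17 were not called, with a median of 0.31, and 9 were higher when ventral sample 1 was left out. Sox2, a factor that all neural stem cells use, read 16512.6, 13609.8 and 13812.9 in the striatal samples and 15836.2 and 14294.0 in the ventral samples, with a log2 difference of 0.08 and a 95% interval from -0.39 to 0.55 (limma adjusted p = 0.836), whose sign turned with the values as deposited (-0.04) and with quantile normalization (-0.07). Nes, the filament of progenitors, read 11615.1, 12057.9 and 11459.3 against 10791.9 and 5828.5 and was not called (limma adjusted p = 0.0798). Hopx and Thrsp were higher besides Gfap against each ventral sample: Hopx, a homeodomain protein found in outer radial glia and adult stem cells, read 3375.1, 5113.4 and 5544.0 against 411.0 and 220.6 (3.93 ± 0.39, limma adjusted p = 4.72e-05). The lower genes were Hes5, a target of Notch, and Gli3, a hedgehog pathway factor. Hes5 read 478.1, 627.9 and 534.3 in the striatal samples and 5197.5 and 5979.7 in the ventral samples (-3.17 ± 0.26, limma adjusted p = 1.05e-05), and its ventral samples were alike.

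Cell cycle and replication genes were mostly not called. Of 35 tested 1 was lower, the mitotic motor Kif11, none was higher, and the median was -0.41. Over all 77 probe sets of these genes 7 were higher and 4 lower, and with the mean over a gene's probe sets 1 gene was higher and 2 were lower. When ventral sample 1 was left out 2 were higher and none lower. Kif11 read 4276.2, 7162.4 and 5463.0 in the striatal samples and 12233.9 and 11602.2 in the ventral samples (-0.98 ± 0.27, limma adjusted p = 0.0243), and it lost its call without either ventral sample (adjusted p = 0.0745 and 0.104) and without striatal sample 1 (adjusted p = 0.0813) or 3 (adjusted p = 0.0679). Top2a, the topoisomerase of dividing cells, read 5322.4, 6243.9 and 5831.5 against 10298.9 and 10085.8 and was not called (-0.69 ± 0.24, limma adjusted p = 0.058).

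Regulators of division and self-renewal changed in both directions. Of 18 tested 4 were higher (Hmga2, Cdkn2a, Cdkn2b and Mdm2) and 4 were lower (Igf2bp1, Igf2bp3, Ezh2 and Mycn), and Hmga2, Cdkn2a and Igf2bp3 were called against each ventral sample. Hmga2, a chromatin protein known from fetal stem cells, was higher in the adult spheres, at 14153.1, 10989.7 and 8098.4 against 1276.4 and 1286.9 (3.17 ± 0.40, limma adjusted p = 2.33e-04). Cdkn2a, the locus of the inhibitors p16 and p19, read 572.9, 323.9 and 436.2 against 55.1 and 69.1 (2.50 ± 0.48, limma adjusted p = 0.00353). The RNA-binding protein Igf2bp3, a fetal gene, read 591.0, 555.5 and 648.5 against 4987.2 and 4715.0 (-2.84 ± 0.25, limma adjusted p = 1.71e-05). Cdkn1a, which encodes the inhibitor p21, read 29913.9, 29014.3 and 28886.0 in the striatal samples, 21987.1 in ventral sample 1 and 1933.3 in ventral sample 2 and was not called (limma adjusted p = 0.0674).

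Imprinted genes of fetal growth were lower or not called. Of 14 tested 5 were lower (Grb10, Magel2, Meg3, Nnat and Ndn), none was higher, and 4 were lower against each ventral sample. Grb10, an adaptor that restrains growth factor signalling, read 959.3, 889.6 and 694.3 in the striatal samples and 20041.1 and 17560.2 in the ventral samples (-4.31 ± 0.42, limma adjusted p = 3.99e-05). Meg3, a maternally expressed RNA, read 583.0, 507.5 and 684.1 against 2932.0 and 10713.8 (-3.07 ± 0.41, limma adjusted p = 3.54e-04). The growth factor Igf2 read 769.9, 177.9 and 232.2 against 666.1 and 3654.6, so that its groups overlapped (limma adjusted p = 0.209).

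**Figure D3:**
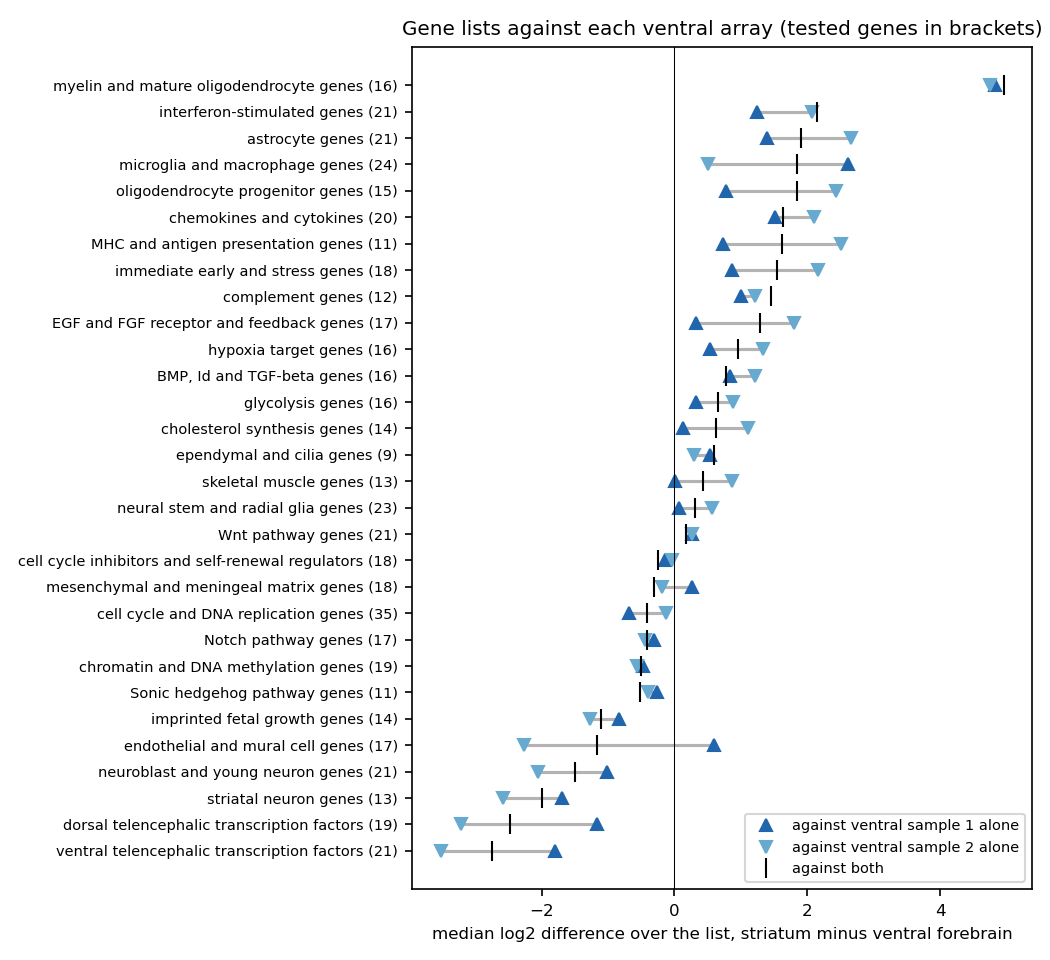
Median log2 difference, striatum minus ventral forebrain, over the tested genes of each list with at least 9 of them, against ventral sample 1 alone (dark triangles), ventral sample 2 alone (light triangles) and both (bars). Myelin genes had medians of 4.82 and 4.75 against ventral samples 1 and 2, while endothelial and mural genes lay at 0.59 against ventral sample 1 and at -2.26 against ventral sample 2.

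Of 17 EGF and FGF receptor and feedback genes 4 were higher and 1 was lower, and 13 were higher when ventral sample 1 was left out, against 2 without striatal sample 1 or 2. Erbb3, the neuregulin receptor of the oligodendrocyte lineage, read 501.6, 691.2 and 506.6 in the striatal samples and 70.1 and 37.7 in the ventral samples (3.02 ± 0.46, limma adjusted p = 8.44e-04). Its other tested probe set, of 2, had a log2 difference of 1.05 and was not called. Errfi1, a feedback inhibitor of the EGF receptor, read 5670.1, 6293.9 and 5652.9 against 2034.6 and 2905.7 (1.39 ± 0.20, limma adjusted p = 6.13e-04). These were the members called against each ventral sample. Spry4, an FGF feedback gene, followed Egfr, at 4745.2, 5765.1 and 6442.9 in the striatal samples, 5802.8 in ventral sample 1 and 282.4 in ventral sample 2 (limma adjusted p = 0.194).

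Among 17 Notch genes 4 were lower and 2 higher, and 3 were lower against each ventral sample: Hes5, the glycosyltransferase Mfng and the feedback gene Nrarp. Mfng read 370.0, 489.0 and 248.8 in the striatal samples and 3256.2 and 5169.3 in the ventral samples (-3.30 ± 0.48, limma adjusted p = 5.7e-04). Nrarp read 376.3, 1093.7 and 1222.3 against 3376.4 and 6664.6 (-2.40 ± 0.43, limma adjusted p = 0.00235). The ligand Jag1 was higher, at 7076.8, 8521.0 and 6020.5 against 3973.0 and 3117.9 (1.14 ± 0.27, limma adjusted p = 0.012), a call lost without ventral sample 2 (adjusted p = 0.141).

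Of 16 BMP, Id and TGF-beta genes 5 were higher and 2 were lower, and 3 were higher without any 1 striatal sample. Id4, an inhibitor of differentiation factors, was lower at 2425.0, 1217.8 and 1785.5 against 8673.0 and 25362.9 (-2.95 ± 0.44, limma adjusted p = 7.43e-04), and the ligand Tgfb2 was higher at 11303.4, 9768.2 and 8778.5 against 3279.9 and 2252.5 (1.98 ± 0.23, limma adjusted p = 1.16e-04). Of 21 Wnt genes 3 were higher and 4 lower, and the secreted inhibitor Sfrp2 was the member lower against each ventral sample, at 575.6, 474.5 and 579.0 against 4033.4 and 2613.6 (-2.40 ± 0.41, limma adjusted p = 0.00174). None of the Wnt genes was higher without striatal sample 1 or 2. Of 11 hedgehog genes Gli2 and Gli3 were lower, and 2 were higher when ventral sample 1 was left out. Gli3, mostly a repressor of the pathway, read 564.3, 926.0 and 1037.6 against 3242.5 and 4035.7 (-1.99 ± 0.39, limma adjusted p = 0.00397), while the call of Gli2 was lost without any 1 of the 5 samples (adjusted p from 0.0508 to 0.256).

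Several groups of immune genes had members higher in striatal spheres and none lower. Of 20 chemokines and cytokines 9 were higher and none lower (median 1.63), and Il33, Ccl2, Ccl3, Cxcl14 and Lif were higher against each ventral sample. Ccl2, a monocyte attractant, had signals of 16304.8, 3874.0 and 3058.8 in the striatal samples and of 356.0 and 17.1 in the ventral samples (5.61 ± 1.02, limma adjusted p = 0.0026). Lif, a cytokine of the interleukin-6 family that promotes astrocyte formation, read 2994.7, 876.1 and 1160.0 against 136.9 and 9.6 (no ventral array detected it, at least 19.5-fold higher, limma adjusted p = 7.1e-04). Cxcl10, an interferon-induced chemokine, read 8270.9, 575.1 and 419.0 against 245.0 and 57.7 and was not called (limma adjusted p = 0.118). Striatal sample 1 was the highest of the 3 for each of these 3 genes.

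Of 21 interferon-stimulated genes 12 were higher and none lower (median 2.15), and 4 were higher against each ventral sample; without striatal sample 1 there were 7. Ifit3, an antiviral effector, read 2939.3, 453.4 and 472.4 in the striatal samples and 13.6 and 72.5 in the ventral samples (no ventral array detected it, at least 15.3-fold higher, limma adjusted p = 0.00584). Psmb8, a subunit of the immunoproteasome, read 1261.9, 697.8 and 390.7 against 43.1 and 60.4 (no ventral array detected it, at least 10.2-fold higher, limma adjusted p = 0.0022). Of 11 genes of MHC and antigen presentation 6 were higher, but Nlrc5, the activator of class I genes, was the member higher against each ventral sample, at 597.1, 460.3 and 564.3 against 128.7 and 56.1 (2.44 ± 0.40, limma adjusted p = 0.00141). H2-K1, a class I heavy chain, read 29448.1, 11322.9 and 21055.4 in the striatal samples, 13214.4 in ventral sample 1 and 595.8 in ventral sample 2, so that ventral sample 1 lay within the striatal range (limma adjusted p = 0.0428), and its call was lost without ventral sample 2 (adjusted p = 0.598) and without any 1 striatal sample (adjusted p from 0.0507 to 0.129).

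Microglia and macrophage genes had 10 higher members of 24 tested and none lower, with a median of 1.84, of which Lyz2 and Cd68 were higher against each ventral sample. Their summed signal ran from 20377 to 36186 in the striatal samples and from 1868 to 15414 in the ventral samples, and 3 members were detected on no striatal array and 8 on no ventral array. Without striatal samples 1, 2 and 3 in turn there were 6, 3 and 5 higher members, and without ventral sample 1 there were 3. Lyz2, lysozyme, read 5119.1, 6657.6 and 5455.4 in the striatal samples and 260.9 and 195.1 in the ventral samples (4.63 ± 0.36, limma adjusted p = 7.42e-06). Tyrobp, an adaptor of myeloid receptors, read 2339.4, 4394.1 and 4180.1 in the striatal samples, 207.0 in ventral sample 1 and 1266.3 in ventral sample 2 (limma adjusted p = 0.0237, and 0.176 without ventral sample 1). Csf1r, the survival receptor of microglia, read 694.9, 1504.4 and 386.4 against 4.0 and 842.7, so that ventral sample 2 lay within the striatal range (limma adjusted p = 0.271). The homeostatic microglia marker Tmem119 was at most 53.5 in the striatal samples and 102.0 in the ventral samples. The part of these cells in the differences of the immune genes was not tested. Of 12 complement genes 5 were higher, or 3 without ventral sample 1 or striatal sample 1 or 2, and the receptor C5ar1 was the member higher against each ventral sample, at 843.1, 1699.7 and 1326.3 against 9.7 and 135.2 (no ventral array detected it, at least 17.9-fold higher, limma adjusted p = 0.00549). Of the 2 tested C5ar1 probe sets only this 1 was called, and the other had a log2 difference of 0.49.

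Markers of other cell types were also read. None of 17 endothelial and mural genes was called, though 1 was higher and 2 lower without ventral sample 1 and 1 was lower without ventral sample 2, and their summed signal was 7610 and 19626 in the ventral samples and 9320 to 11332 in the striatal samples. Without ventral sample 2 their median was 0.59 and without ventral sample 1 it was -2.26. Of 5 red blood cell genes none was called, with a summed signal of 282 to 326 in the striatal samples and of 358 and 28430 in the ventral samples, and 3 were lower when ventral sample 1 was left out. Of 18 mesenchymal and meningeal matrix genes 6 were higher (Col5a1, Col6a1, Col6a2, Thy1, Ptgds and Igfbp2), and Col5a1, a fibril collagen, was the member higher against each ventral sample, at 3679.0, 2566.3 and 2562.0 against 633.3 and 583.2 (2.33 ± 0.28, limma adjusted p = 1.5e-04). Without striatal samples 1, 2 and 3 in turn there were 2, 2 and 3. Of 9 ependymal and cilia genes 3 were higher and 1 was lower, of which Rarres2 held against each ventral sample, at 4180.2, 3316.6 and 4429.2 against 511.4 and 434.6. Of 13 skeletal muscle genes Tnni1 and Myl4 were higher, with a highest striatal signal of 518.5 and Tnni1 detected on none of the 5 arrays, and both lost the call without ventral sample 2 (adjusted p = 0.128 and 0.141). None of 7 tested Hox genes, marks of the spinal cord, was called, and their summed signal was 243 to 332 in the striatal and 225 to 308 in the ventral samples.

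Of 18 immediate early and stress genes 7 were higher and none lower, with 11 without ventral sample 1 and 4 without striatal sample 1. Gadd45a and Dusp1 were higher against each ventral sample, and Gadd45a, a growth arrest gene, was at 2689.0, 2078.5 and 2156.3 against 447.2 and 311.7 (2.66 ± 0.28, limma adjusted p = 5.89e-05). Fos read 12214.5, 17874.0 and 14154.6 in the striatal samples, 8672.7 in ventral sample 1 and 33.8 in ventral sample 2, and was not called (limma adjusted p = 0.0906). Of 16 glycolysis genes 4 were higher, with 7 without ventral sample 1 and 2 without striatal sample 1, and Aldoc, the aldolase of astrocytes, held against each ventral sample at 7211.5, 10311.0 and 9744.4 against 4057.6 and 1692.0 (1.89 ± 0.29, limma adjusted p = 8.09e-04). Of 16 hypoxia targets the glucose transporter Slc2a1 was higher (1.05 ± 0.33, limma adjusted p = 0.0427), a call lost without ventral sample 1 (adjusted p = 0.173), ventral sample 2 (0.0946) or striatal sample 1 (0.108). Of these hypoxia targets 4 were higher without ventral sample 1, 2 without striatal sample 2 and 3 without striatal sample 3. None of 14 cholesterol synthesis genes was called, and 6 were higher when ventral sample 1 was left out.

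The 15 genes with the largest rise had fitted log2 differences from 6.01 to 9.41, and all 15 were called against each ventral sample. For 8 of them no ventral array detected the probe set, and their fitted differences are not measured on both sides. They were Mbp, Mag, Mobp, Mal and Cldn11 of myelin, Gfap and S100b of astrocytes, Il33, and Gpd1, Nupr1, Mmp12, Tnfaip2, Serpina3n, Synpo and Aox1. Gpd1, glycerol-3-phosphate dehydrogenase, had signals of 10145.0, 14674.0 and 14420.9 in the striatal samples. In the ventral samples it had 28.2 and 11.9, neither detected, and was at least 293-fold higher in striatal spheres (limma adjusted p = 2.71e-06). Of the 3 tested Gpd1 probe sets 2 were called, and the lowest log2 difference among them all was 1.0. Mmp12, a macrophage metalloprotease, read 1078.3, 4140.6 and 2726.2 against 3.3 and 4.2 (no ventral array detected it, at least 65.5-fold higher, limma adjusted p = 8.17e-06). Serpina3n, a protease inhibitor of reactive astrocytes, read 4147.8, 2947.4 and 4525.6 against 57.5 and 6.8 (no ventral array detected it, at least 70.3-fold higher, limma adjusted p = 6.68e-07).

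The 15 genes with the largest fall, with fitted log2 differences from -8.64 to -5.87, were Xist, Zic1, Isl1, Tbr1, Zdbf2, Lhx6, Cntnap2, Epha3, Glra2, Syt1, Dcx, Neurod6, St8sia2, Dlx5 and Runx1t1, and all 15 were called against each ventral sample. For 7 of them no striatal array detected the probe set. In each of the 15 ventral sample 2 was above ventral sample 1. Zic1, a zinc finger factor of the septum and dorsal midline, had signals of 21, 20.2 and 117.3 in the striatal samples and of 9521.5 and 16405.0 in the ventral samples (-7.38 ± 0.86, limma adjusted p = 1.3e-04). St8sia2, which adds polysialic acid to the adhesion molecule of migrating neurons, read 26.4, 32.6 and 13.6 against 1904.5 and 5784.9 (no striatal array detected it, at least 60.5-fold lower, limma adjusted p = 3.61e-05). Syt1, a calcium sensor of synaptic vesicles, read 50.9, 87.7 and 58.8 against 5704.5 and 7840.6 (-6.07 ± 0.64, limma adjusted p = 6.81e-05).

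**Figure D4:**
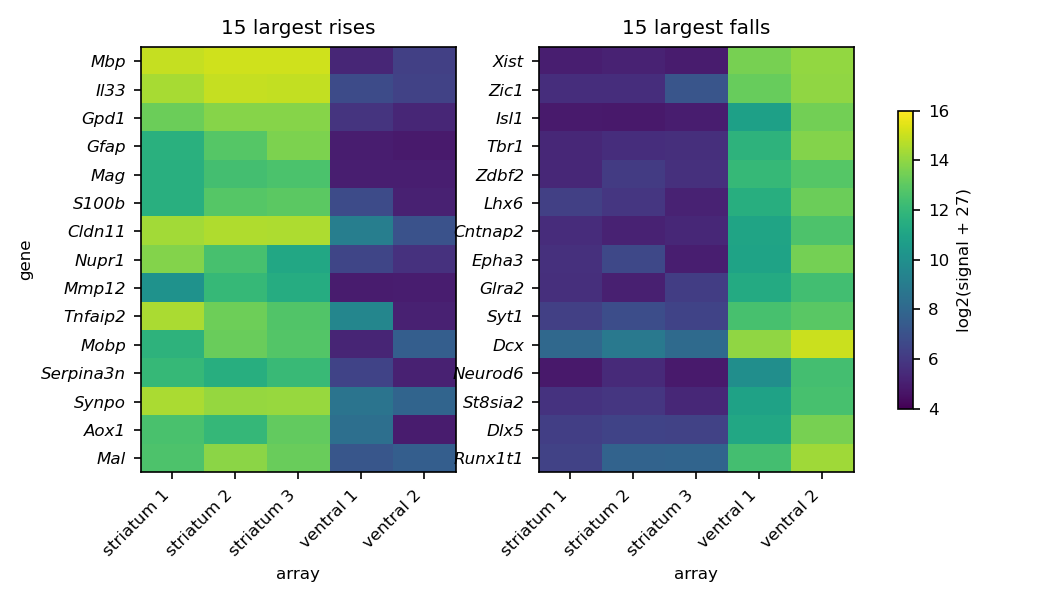
log2(signal + 27) on the 5 arrays for the 15 genes with the largest rise (left) and the 15 with the largest fall (right) in striatal against ventral spheres. In each fall the striatal arrays are dark and ventral sample 2 is brighter than ventral sample 1, while among the rises 4 genes are brighter in ventral sample 2 than in ventral sample 1.

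Under the rule that every striatal array is at least 2-fold above or below every ventral array, which is nearest to the study's own definition of enrichment and has no test, 1589 probe sets (4.51%) were higher and 1290 (3.66%) lower. Without any margin, the arrays did not overlap at 9073 probe sets above (25.8%) and 7855 below (22.3%), and 6782 of the 6792 calls were among these. A detection p under 0.05 on all 3 striatal arrays and on no ventral array was found for 637 probe sets, and on both ventral arrays and no striatal array for 805.

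Whether the difference between adult striatal and embryonic ventral spheres itself differed from that between adult neocortical and embryonic dorsal spheres was tested by the interaction of the 2 differences, which share no arrays. Without the sample numbers in the fit no probe set was called (0 of 35211, 0.0%, limma), and the smallest adjusted p was 0.08101. An unadjusted p under 0.05 was found for 2589 probe sets, where 1761 would be expected if no interaction existed. The absence of calls therefore does not show that the 2 differences were equal. With the sample number as a block within each age, a fit chosen after seeing the data that leaves out the unnumbered spinal cord sample, 285 probe sets were called (0.809%), 154 of them with a positive and 131 with a negative interaction. The 2 fits therefore differ in whether any gene is called. Lhx8 had a fitted striatal minus ventral difference of -5.76, with no striatal array detected, and a neocortical minus dorsal difference of -0.02 ± 0.63. Its interaction was -5.73 ± 0.88 (limma adjusted p = 0.0828), and was called with the block (adjusted p = 0.00665). For Dlx5 the neocortical minus dorsal difference was -2.98 ± 0.69 and the interaction -2.91 ± 0.98 (limma adjusted p = 0.543, and 0.027 with the block). Il33 was higher in neocortical than in dorsal spheres by 9.70 ± 0.26, with an interaction of -1.37 ± 0.37 (limma adjusted p = 0.322, and 0.0258 with the block). The probe set of Mbp with the largest rise was higher there by 8.04 ± 0.23, with an interaction of 1.37 ± 0.33 (limma adjusted p = 0.239, and 0.0532 with the block). Six3 differed between neocortical and dorsal spheres by -0.09 ± 0.41, with an interaction of -0.44 ± 0.57 (limma adjusted p = 0.881, and 0.767 with the block).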

How the data were processed

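Total RNA of secondary neurospheres was read on 14 Affymetrix Mouse Genome 430 2.0 arrays, 5 of which enter the comparison. The deposited values are a linear signal intensity per probe set, with the authors' detection p-value, and each array's deposited intensity was used as given. The series text names GeneSpring GX 7.3.1 and a 2-fold rule over triplicates; no source used here says how the intensities were made from the scans. Array medians were 235.0 to 273.7 in striatal and 273.6 to 289.9 in ventral samples, and 63.4% to 64.7% and 64.1% to 65.7% of probe sets were detected.

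Each array was taken as log2(signal + 27), a pseudocount set from the array medians, and centred on its own median. Of 45101 probe sets, 64 controls and 9826 with a detection p under 0.05 on fewer than 2 arrays were left out. The 35211 others were fitted over all 14 arrays in 6 groups with limma 3.58.1 in R 4.3.3 (eBayes with a trend). Its two-sided p-values were adjusted by Benjamini-Hochberg across these probe sets. On simulated data with 200 changed probe sets, 6% of 2-fold and 54.5% of 4-fold changes were called. These shares hold for 200 changed probe sets among 35211 and do not measure the power of the comparison, in which 6792 were called. An at-least fold is given where no array of the dimmer group detected a probe set, against the higher of each array's lowest detected signal and the probe set's own. It leaves out the spread between samples.

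Genes were named from GEO's platform annotation of 2016: 34958 probe sets have 1 gene, 932 several and 9211 are unnamed here. Lists use the probe set of highest mean over 14 arrays per gene, and no list gene had probe sets called in opposite directions. Some named genes, such as Hmga2, Gli3, Slc32a1 and Syt1, also had tested probe sets that were not called. Named are the 7 given probe sets, the 15 genes with the largest rise and fall, and up to 5 called genes per list. Further list members and the marker genes of other cell types were named after their values were seen. The members and lists were chosen with earlier results of these data known. Alternatives were the pseudocount, scaling, filter, arrays fitted, array weights, a robust prior, a replicate block, a stricter threshold and each sample left out. Same-numbered striatal and ventral samples deviated together with correlations of 0.028 and 0.036, and were not treated as pairs. Same-numbered striatal and neocortical samples did so at 0.25, 0.109 and 0.112, each over 0.1. Ventral and dorsal samples did so at 0.577, with only 2 pairs. No sample title states pairs, but the 3 codes of the striatal array names also occur in the neocortical ones. Likewise, the 2 ventral codes occur in the dorsal array names. The interaction was therefore also fitted with the number as a block within each age.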

Additional observations from a re-analysis of the deposited data

How the results depend on the processing

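The 6792 calls came to between 6264 and 7287 under another pseudocount, scaling, filter, robust prior or without the spinal cord sample. They came to 4020 in a fit of only the 5 arrays, 2994 at an adjusted p under 0.01 and 4983 with array weights, and ran from 1963 to 8870 when a striatal or ventral sample was left out. Of the calls, 5908 remained without ventral sample 1 and 1886 without ventral sample 2. The 0 interaction calls became 98 with a pseudocount 10 times as large, 1 with the replicate block over all samples and 285 with the replicate block within each age, which was chosen after seeing the data, and ran from 0 to 192 with a sample left out. Under the rule of 2-fold between all arrays, the 1589 higher and 1290 lower became 833 and 632 with that pseudocount and 429 and 365 with a 4-fold margin, and ran from 1839 to 4890 and from 1558 to 3539 with a sample left out, where fewer arrays have to pass. The 198 called list genes became 107 and the 152 called named genes 96 at an adjusted p under 0.01, and ran from 95 to 254 and from 85 to 135 with a sample left out. No called named gene changed sign under any of these alternatives.

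With the replicate block 7875 probe sets were called; the numbers do not pair striatal with ventral samples, and no numbers were crossed. The block within each age changed no call of the striatal minus neocortical or ventral minus dorsal differences given for Six3, Dlx5, Lhx8 and Tbr1. Among the genes named with values, signs turned for 6 that were not called. With a sample left out, the log2 difference ran from -0.42 to 4.41 for Egfr, from -0.53 to 0.39 for Gad2, from -0.06 to 0.19 for Sox2, from -7.99 to 0.83 for Hbb-y, from -1.12 to 0.52 for Tmem119 and from -0.01 to 4.72 for Csf1r. Sox2 came to -0.04 as deposited and -0.07 with quantile normalization, and Tmem119, detected on none of the 5 arrays, to 0.12 with the replicate block. Where the cause is not the smaller number of arrays, it was not tested. The precision is limited by 2 ventral samples that differ from each other, and values near background, such as those of Lhx8 in striatal samples, have no order.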

Other observations

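Of 19 chromatin and DNA methylation genes 6 were lower in striatal spheres and none higher, with a median log2 difference of -0.51. Ezh2, the methyltransferase of Polycomb, had signals of 4524.7, 6404.9 and 5809.0 in the striatal samples and of 10331.1 and 12977.5 in the ventral samples (-0.94 ± 0.19, SE, limma adjusted p = 0.0046). None of the 6 was called without ventral sample 2, where the adjusted p of Ezh2 was 0.0661.

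In the RefSeq promoter table (build GRCm38.p6), 17 of 21 tested astrocyte genes had a promoter, with a median of 6 CG in 300 bases, and 17 of 21 ventral transcription factors had a median of 16. Of all tested genes 80.2% had a promoter, with a median of 20. For myelin genes 75% had a promoter, too few for this check, which is void for them.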
